A study of Mus musculus with 9 samples.

Results

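The genes described here are insulin-like growth factor 1 (Igf1), the IGF1 receptor (Igf1r), the insulin receptor (Insr), insulin receptor substrate 1 (Irs1) and 5 IGF-binding proteins (Igfbp2, Igfbp3, Igfbp4, Igfbp5 and Igfbp7). They were taken by symbol from the deposited gene table, and all 9 were found among its 54532 genes. The table holds RNA-seq read counts of lambdoidal junction tissue, the region of the embryonic face where the medial nasal, lateral nasal and maxillary processes meet and fuse to form the upper lip and primary palate. Mouse embryos of 3 stages were used, embryonic day 10.5 (E10.5), E11.5 and then E12.5, and each stage has 3 libraries. The embryos were of the C57BL/6J strain, and no genetic change or treatment is named for them. Several embryos were pooled for each library, so no value belongs to a single embryo, and the stage is the only difference named between the groups. The tissue is a mixture, so fewer cells of a type and less RNA per cell cannot be told apart.

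IGF1 is a secreted growth factor. It activates the IGF1 receptor, a tyrosine kinase of the cell membrane that is closely related to the insulin receptor, and both receptors pass the signal through insulin receptor substrates to the PI3K-Akt and ERK pathways. IGF-binding proteins hold IGFs in the extracellular space, where they can keep the ligand from its receptor or store it until proteases release it, and the pathway is best known in the mouse embryo as a requirement for growth before birth.

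Total depth was 16581009–20836804 counts per library. The 10 facial mesenchyme markers had summed levels of 1287–2156 CPM at E10.5, 2872–3063 CPM at E11.5 and 2851–3252 CPM at E12.5. Of them, 4 were higher at E11.5 than at E10.5 in edgeR's quasi-likelihood test, against 6.19% of all genes tested. In E10.5 replicate 3, log2 CPM differed from the mean of the other two E10.5 libraries with an SD of 0.679 over 16363 genes, against 0.317–0.485 for the other 8 libraries, and these differences had a Spearman rho of -0.546 with GC content across genes, which are not independent replicates. Its summed level of 10 endothelial markers was 144 CPM, against 396 and 413 CPM in the other two, and its mesenchymal sum of 1287 CPM lay below their 2128 and 2156 CPM. Forebrain neural progenitor markers fell from summed levels of 615–814 CPM at E10.5 to 240–292 CPM at E11.5 and 232–270 CPM at E12.5. All 10 of them were lower at E11.5 in the same test, against 5.58% of all genes tested. The part of these differences between libraries in the results below was not tested.

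Of the 9 genes, 3 differed among the 3 stages, namely Igf1, Igfbp3 and Igfbp7, against 28.3% of all genes tested, so that the share among the 9 was near that of all genes. The bases just before their transcription start are shown here so that the genes whose RNA level moved can be placed on the genome. The sequences are RefSeq's, on GRCm38.p6, the 250 bases before the start, 5′ to 3′ on the gene's strand, and 8 of the 9 genes had an entry in the promoter table used. Capitals mark a GC box (GGGCGG or CCGCCC) or the letters TATATA on either strand.
Igf1, chr10:87860861-87861110, plus strand: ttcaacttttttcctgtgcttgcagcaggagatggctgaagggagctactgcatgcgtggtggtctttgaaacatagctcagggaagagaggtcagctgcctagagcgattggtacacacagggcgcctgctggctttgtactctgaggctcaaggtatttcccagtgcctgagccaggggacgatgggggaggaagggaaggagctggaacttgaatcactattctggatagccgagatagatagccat
Igfbp3, chr11:7213924-7214173, minus strand: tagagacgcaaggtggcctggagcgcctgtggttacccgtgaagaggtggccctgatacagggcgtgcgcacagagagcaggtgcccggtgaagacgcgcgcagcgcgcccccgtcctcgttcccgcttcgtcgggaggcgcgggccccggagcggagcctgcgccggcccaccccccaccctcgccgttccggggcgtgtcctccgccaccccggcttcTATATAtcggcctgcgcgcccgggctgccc
Igfbp7, chr5:77408046-77408295, minus strand: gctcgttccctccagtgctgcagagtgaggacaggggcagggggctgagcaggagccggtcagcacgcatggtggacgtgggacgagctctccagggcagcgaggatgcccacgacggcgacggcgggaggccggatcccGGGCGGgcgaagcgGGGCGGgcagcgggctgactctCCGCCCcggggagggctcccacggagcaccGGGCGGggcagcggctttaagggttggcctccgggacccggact
The Igfbp3 window holds 1 TATATA, which begins 30 bases before the start, and no GC box. The Igfbp7 window holds 4 GC boxes, which begin 110, 96, 74 and 44 bases before the start. The Igf1 window holds neither, and its RefSeq start lies 2846 bases inside the deposited gene. Its GC content is 52.8%, against 73.2% for Igfbp3 and 74% for Igfbp7. Among all 32851 promoter windows of this length, 32.74% hold a GC box and 5.248% hold TATATA. Among the 8 genes with an entry, 4 hold a GC box and 1 holds TATATA. The letters TATAAA, searched on both strands, were found in 1 of the 8, Igfbp4, and in 12.37% of all windows. These matches describe the letters only.

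In the deposited annotation (GRCm38), Igf1 lies on chromosome 10 at 87858265–87937042, Igf1r on chromosome 7 at 67952827–68233668, Insr on chromosome 8 at 3122061–3279617 and Irs1 on chromosome 1 at 82233101–82291416. Igfbp2 (72824503–72852474, plus strand) and Igfbp5 (72857932–72874884, minus strand) are neighbours on chromosome 1, with their 3′ ends 5457 bases apart. Igfbp3 lies on chromosome 11 at 7206086–7213923, 3539 bases from Igfbp1, and Igfbp4 on the same chromosome at 99041244–99054392. Igfbp7 lies on chromosome 5 at 77349240–77408041. For 7 of the 9 genes no exon base is shared with another gene. The kit named in the labels does not mark the strand of a read, and 30.9% of the exon bases of Irs1 are shared with the antisense gene Gm9747, listed at 0 counts, and 7.03% of those of Igfbp7 with the antisense gene Polr2b. How reads over shared bases were counted is not given in the sources used here, so the levels of Irs1 and Igfbp7 are uncertain to that extent.

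The first question was how strongly each gene was expressed. Levels of different genes were compared as CPM per kilobase of the deposited gene length, where CPM is counts per 1000000 counts of a library size scaled by the TMM method. This length equals all annotated exon bases of the gene together. It may exceed the length of the transcript in use, so the order of genes depends on it. Igfbp2, Igfbp4 and Igfbp5 stood far above the ligand and the receptors at every stage. At E10.5 the means were 226 ± 18.8 CPM per kb for Igfbp2, 195 ± 66.6 for Igfbp4 and 114 ± 23.8 for Igfbp5 (SD, n = 3 libraries here and below). Igfbp5 was followed at a distance by Igf1 with 12.3 ± 1.89, Igfbp3 with 11.8 ± 1.12 and Igf1r with 10.99 ± 1.19 CPM per kb, whose libraries overlapped each other. Insr (5.12 ± 0.446) and Irs1 (4.41 ± 0.637) overlapped as well, and Igfbp7 was lowest with 1.05 ± 0.634 CPM per kb. At E11.5 the order began with Igfbp4 (201 ± 16.3 CPM per kb), Igfbp2 (161 ± 21.8) and Igfbp5 (125 ± 4.08), and neighbours in this order did not overlap except for Igf1 and Igfbp3. At E12.5 the libraries of Igfbp4 (248 ± 30.8), Igfbp2 (199 ± 32.8) and Igfbp5 (156 ± 49.0) overlapped again, and Igfbp3, at 37.5 ± 2.82 CPM per kb, stood alone, next below these and above Igf1 at 15.6 ± 2.12. Igfbp7, the lowest of the 9 at E10.5, lay above Insr and Irs1 at E12.5 with 8.77 ± 1.13 CPM per kb.

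**Figure D1:**
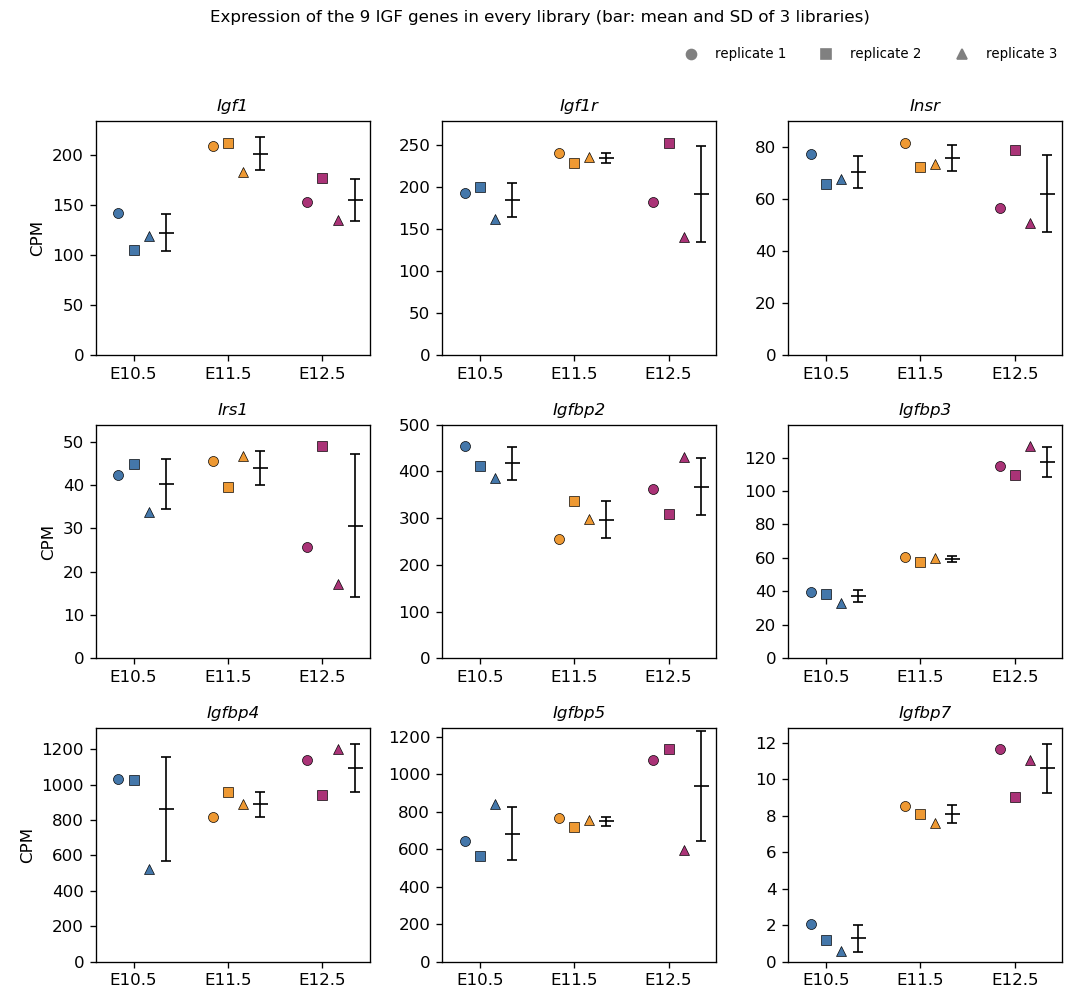
CPM (vertical axis, from 0) of the 9 genes in each of the 9 libraries, by stage. Symbols mark replicates 1 to 3 and the bar beside them the mean and SD; Igfbp3 steps up at each stage, Igfbp7 lies under 2.1 CPM in every E10.5 library and above 7.5 CPM in every later one, and E12.5 replicate 2 is the highest and replicate 3 the lowest E12.5 library for Igf1, Igf1r, Insr and Irs1.

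The ligand was highest in the middle of the course. Igf1 had 142, 105 and 119 CPM in E10.5 replicates 1, 2 and 3, then 208, 212 and 182 CPM at E11.5, then 152, 176 and 134 CPM at E12.5. All E11.5 libraries lay above all others, and the E10.5 and E12.5 libraries overlapped. Between E10.5 and E11.5, Igf1 rose by 0.72 on the log2 scale (SE 0.134, adjusted p = 0.0135, edgeR's quasi-likelihood test, adjusted by the Benjamini-Hochberg method over all genes tested, as for every adjusted p below). The rise was of similar size but no longer passed the test without E11.5 replicate 1 (0.70, adjusted p = 0.0788) or without E11.5 replicate 2 (0.69, adjusted p = 0.0639). Between E11.5 and E12.5 the estimate was -0.38 (SE 0.134, adjusted p = 0.0865), which passed the test in DESeq2 (-0.40, adjusted p = 0.0407), with all genes of at least 1 count in edgeR (-0.41, adjusted p = 0.0419) and without E12.5 replicate 2 (-0.50, adjusted p = 0.00919). E12.5 against E10.5 gave 0.35 (SE 0.186, adjusted p = 0.198). Over the 3 stages together Igf1 differed (adjusted p = 0.0112).

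With all libraries, the default filter on low counts and no block or GC correction, the receptors and their substrate did not pass the test in any comparison. Igf1r, the receptor for IGF1 and IGF2, had 192, 200 and 162 CPM at E10.5, 240, 229 and 235 CPM at E11.5, then 182, 253 and 140 CPM at E12.5. The E11.5 libraries lay close together and above all of E10.5, whereas E12.5 spanned the range of both earlier stages. The log2 fold change was 0.35 (95% confidence interval 0.10 to 0.60, adjusted p = 0.0770) at E11.5 against E10.5 and -0.30 (-0.70 to 0.11, adjusted p = 0.308) at E12.5 against E11.5. The first of these passed the test with the trend on GC content removed (0.30, adjusted p = 0.0447) or without E10.5 replicate 3 (0.27, adjusted p = 0.00513). Insr, the insulin receptor, had 77.3, 65.8 and 67.8 CPM, then 81.7, 72.3 and 73.3 CPM, then 56.7, 78.8 and 50.7 CPM. Its stages overlapped in every pair, and its intervals bounded the log2 change to -0.14 to 0.36 in the first comparison and -0.65 to 0.07 in the second. Irs1, the docking protein that both receptors phosphorylate, had 42.3, 44.9 and 33.8 CPM at E10.5, 45.7, 39.6 and 46.8 CPM at E11.5, then 25.8, 49.1 and 17.1 CPM at E12.5. The stages overlapped here too. Its log2 fold change was 0.13 (-0.19 to 0.45, adjusted p = 0.587) in the first interval and -0.52 (-1.18 to 0.13, adjusted p = 0.260) in the second. The latter passed the test with all genes of at least 1 count (-0.56, adjusted p = 0.00635) or with a replicate block (-0.65, adjusted p = 0.0479).

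The 3 signal-receiving genes shared one feature at E12.5. Igf1r, Insr and Irs1 were each highest in replicate 2 and lowest in replicate 3, with replicate 2 above the mean log2 CPM of the other two libraries by 0.66, 0.55 and 1.22. Igfbp5 was likewise highest in replicate 2 (0.50 above the other two), whereas Igfbp2, Igfbp3, Igfbp4 and Igfbp7 were lowest there, at -0.14 to -0.35. Without E12.5 replicate 2, E12.5 against E11.5 gave -0.56 for Igf1r (adjusted p = 0.00759), -0.51 for Insr (adjusted p = 0.00776) and -1.05 for Irs1 (adjusted p = 0.00163), each past the test, and 8 of the 9 genes passed it, against 30.8% of all genes tested in that fit. Whether the receptors passed the test in this interval turned on that library.

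Among the binding proteins, Igfbp3 had the steadiest course. This protein, the main IGF carrier of adult plasma, had 39.5, 38.7 and 33.1 CPM at E10.5, 60.5, 57.5 and 59.9 CPM at E11.5, then 115, 110 and 127 CPM at E12.5. The stages did not overlap, and each stage lay above the one before. Igfbp3 rose by 0.68 on the log2 scale in the first interval (SE 0.109, adjusted p = 0.00788), by 0.98 in the second (SE 0.115, adjusted p = 0.000461) and by 1.67 over the whole span (SE 0.170, adjusted p = 5.68e-05), which is 3.18-fold. The change in the second interval did not differ detectably from that in the first (difference 0.31, SE 0.224, adjusted p = 0.638). The rise of the first interval missed the threshold without E11.5 replicate 1 (0.67, adjusted p = 0.0555) or replicate 3 (0.68, adjusted p = 0.0574), while that of the second and of the whole span passed it in every fit that left out 1 library. In the second interval 6 of the 8 cartilage and bone markers tested were higher as well, against 7.61% of all genes. Their sum over all 10 was 578–679 CPM at E11.5 and 679–873 CPM at E12.5, whereas at E10.5 that sum was 648–1085 CPM. In the first interval 3 of 8 were higher, against 6.19% of all genes, and Ibsp was lower. Over the whole span 5 of 9 were higher, against 14.0% of all genes, and Col2a1 and Ibsp were lower. The epithelial marker sum also went up in the second interval, from 508–527 CPM to 765–839 CPM. Of its 10 markers, 3 (Krt5, Krt14 and Krt15, keratins of stratified epithelium) were higher in both intervals, as Igfbp3 was. Of all genes, 6.19% were higher in the first interval and 7.61% in the second. Krt8 and Krt18 of the same list went the other way, lower in the first interval and over the whole span. The median log2 fold change of the list was -0.23 in the first interval. The part of either cell type in the rise of Igfbp3 was not tested.

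Igfbp7 was the gene with the largest relative change. It differs from the others of the family by its low affinity for IGFs, and is known from vessel walls and their basement membrane. Its counts were 35, 20 and 9 at E10.5, or 2.08, 1.16 and 0.557 CPM, against 8.56, 8.13 and 7.59 CPM at E11.5 and 11.7, 9.06 and 11.1 CPM at E12.5. All E10.5 libraries lay far below all later ones. Igfbp7 rose by 2.67 on the log2 scale (SE 0.378, adjusted p = 0.00500) in the first interval and by 3.06 over the whole span (SE 0.390, adjusted p = 0.000268), 8.36-fold. In the second interval the estimate was 0.38 (SE 0.165, adjusted p = 0.149), although the libraries did not overlap. That rise passed the test without E12.5 replicate 2 (adjusted p = 0.0379). The difference of the intervals, -2.27 (SE 0.509), had an adjusted p of 0.0535. It passed the test in DESeq2 (-2.29, adjusted p = 0.00110) and in edgeR with all genes of at least 1 count, a replicate block or the GC trend removed, and, among the fits without 1 library, without E10.5 replicate 1 (-2.83, adjusted p = 0.0107) or replicate 3 (-1.97, adjusted p = 0.0177). E10.5 replicate 3, the library with the fewest endothelial marker counts, also had the lowest Igfbp7 level, 1.32 below the other two on the log2 scale. Without it the first interval gave 2.32 (adjusted p = 1.66e-05). The summed endothelial markers were 144–413 CPM at E10.5, with E10.5 replicate 3 at 144 CPM, 380–382 CPM at E11.5 and 343–397 CPM at E12.5. Of these 10 markers 0 passed the test in any of the 3 comparisons. Of all genes, 11.8% passed in the first interval, 12.2% in the second and 24.6% over the whole span. The 10 markers of pericytes and smooth muscle summed to 173–338, 256–269 and 128–243 CPM at the 3 stages. Of these markers, 7 were tested in the first interval, 7 in the second and 6 over the whole span. Cspg4 was higher in all 3 comparisons and Rgs5 over the whole span, while Des was lower in all 3. Acta2 was lower in the first interval and higher in the second, and Abcc9 was lower in the second. The part of vessel cells in the rise of Igfbp7 was not tested.

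Igfbp2, an IGF2-preferring family member common in embryonic tissue, was the 1 gene of the 9 whose fall passed the test with all libraries and the default settings. It had 455, 411 and 386 CPM at E10.5, 256, 336 and 299 CPM at E11.5, then 363, 309 and 430 CPM at E12.5. The E10.5 and E11.5 libraries did not overlap, and the E12.5 libraries overlapped both. It fell by 0.49 on the log2 scale in the first interval (SE 0.128, adjusted p = 0.0460). This call was lost in 5 of the 6 fits leaving out 1 library, with adjusted p of up to 0.184. With all libraries it was also lost under upper quartile scaling (adjusted p = 0.0528), a minimum of 10 counts (0.0509) or a fit on all 9 libraries (0.0668). The same held with a replicate block (0.104), the GC trend removed (0.0713) or both together (0.0740). The estimate for the second interval was 0.30 (SE 0.154, adjusted p = 0.219), and it passed the test without E12.5 replicate 2 (adjusted p = 0.0422). The forebrain neural progenitor markers were lower at E11.5 in the same libraries, and their part in this fall was not tested.

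Igfbp4 and Igfbp5, the binding proteins with the highest counts, showed no change that passed the test with all libraries. Igfbp4 had 1035, 1027 and 521 CPM at E10.5, 817, 960 and 891 CPM at E11.5, with 1140.5, 941 and 1201 CPM at E12.5. Igfbp5 had 644, 564 and 841 CPM, then 768, 720 and 755 CPM, then 1077, 1134 and 598 CPM. Each gene had 1 library far from the other two of its stage, E10.5 replicate 3 for Igfbp4 and E12.5 replicate 3 for Igfbp5. In E10.5 replicate 3, Igfbp4 lay 0.98 below and Igfbp5 0.48 above the other two on the log2 scale. The first interval gave 0.05 for Igfbp4 (-0.51 to 0.61, adjusted p = 0.915) and 0.13 for Igfbp5 (-0.22 to 0.49, adjusted p = 0.621). Without E10.5 replicate 3 these became -0.21 (adjusted p = 0.0447) and 0.31 (adjusted p = 0.00491), so that the estimate for Igfbp4 turned from higher to lower. Without E12.5 replicate 3, Igfbp5 was higher at E12.5 than at E11.5 by 0.55 (adjusted p = 0.00658). Igfbp4 was higher in that interval without E12.5 replicate 2 (adjusted p = 0.0280).

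**Figure D2:**
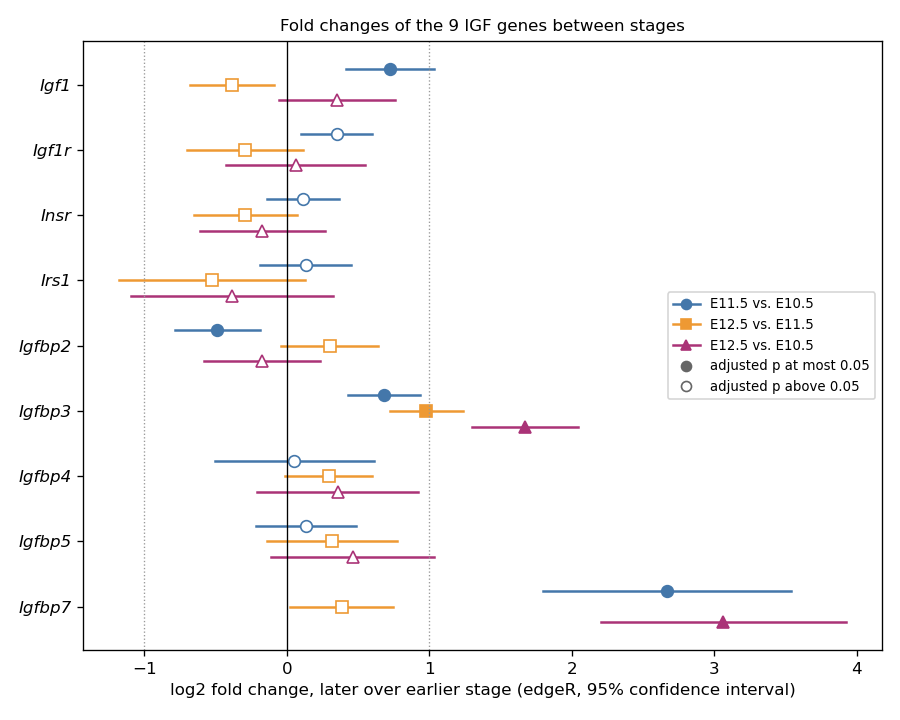
Log2 fold change, later stage over earlier (horizontal axis), for the 9 genes in the 3 comparisons, with 95% confidence intervals from edgeR on the 6 libraries of each pair. Filled symbols have an adjusted p of at most 0.05, and dotted lines stand at -1 and 1; filled symbols appear for Igf1, Igfbp2, Igfbp3 and Igfbp7, and Igfbp7 and Igfbp3 pass 1 over the whole span.

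Counted together, 4 of the 9 genes passed the test at E11.5 against E10.5, 3 higher (Igf1, Igfbp3 and Igfbp7) and 1 lower (Igfbp2), against 11.8% of all 15708 genes tested (6.19% higher, 5.58% lower). At E12.5 against E11.5 it was 1 of 9 (Igfbp3, higher) against 12.2% (7.61% higher, 4.57% lower), and at E12.5 against E10.5 it was 2 of 9 (Igfbp3 and Igfbp7, both higher) against 24.6% (14.0% higher, 10.5% lower). Over the 3 stages together it was 3 of 9 against 28.3%. With a log2 fold change of at least 1 also required (a differentially expressed gene, DEG), 1 gene (Igfbp7) remained in the first interval against 6.07% of all genes, 0 in the second against 5.10%, and both Igfbp3 and Igfbp7 over the whole span against 15.0%. Libraries of the compared stages did not overlap for 5, 3 and 2 of the 9 genes, against 36.7%, 35.3% and 42.4% of all genes. The median log2 fold change of the 9 was 0.13, 0.29 and 0.35 in the 3 comparisons, beside -0.03, 0.02 and -0.01 over all genes tested. For the difference between the intervals 0 of 9 passed the adjusted test in edgeR, against 1.18% of all genes, whereas 3 (Igf1, Igfbp2 and Igfbp7) had an unadjusted p under 0.05, against 12% of all genes, and DESeq2 called 2.

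The makeup of the binding protein transcripts shifted along with these changes. Summed over the 5 binding proteins, the level was 548 ± 63.3 CPM per kb at E10.5, 512 ± 33.5 at E11.5, then 649 ± 34.7 at E12.5. Igfbp2 made up 40.9%, 39.6% and 43.7% of it in the E10.5 libraries, 29.0%, 33.4% and 31.4% at E11.5, and 28.9%, 27.3% and 35.6% at E12.5. Its share was higher in every E10.5 library than in any later one. The share of Igfbp3 was 2.17 ± 0.0616% at E10.5, 3.71 ± 0.337% at E11.5, then 5.78 ± 0.403% at E12.5, and that of Igfbp7 0.184 ± 0.0954%, 1.31 ± 0.147% and 1.35 ± 0.107%. The share of Igfbp4 was 35.0 ± 9.0%, 39.3 ± 0.617% and 38.1 ± 3.37%, and that of Igfbp5 21.3 ± 6.97%, 24.4 ± 2.37% and 24.1 ± 8.05%, so that both overlapped between stages. Shares add up to the whole within a library, so they do not move independently. With 3 libraries against 3 an exact permutation test cannot give a two-sided p below 0.1, and the shares were not tested.

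**Figure D3:**
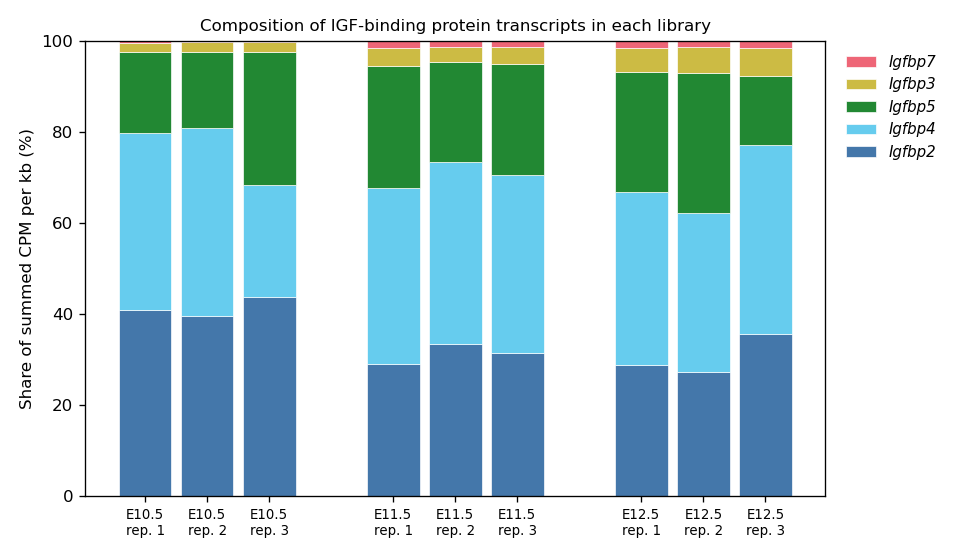
Share of each of the 5 binding proteins in their summed CPM per kilobase (vertical axis, percent) in each library, in stacked bars by stage and replicate. Igfbp2 takes 39.6–43.7% of the bar at E10.5 and 27.3–35.6% later, the band of Igfbp3 widens at each stage, and E10.5 replicate 3 and E12.5 replicate 3 differ from their neighbours in the bands of Igfbp4 and Igfbp5.

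Genes with the most similar pattern were sought by the Pearson correlation of log2 CPM over the 9 libraries, among 9803 protein-coding genes with a mean of at least 10 CPM. The libraries share stage, depth and quality, so the values are descriptions. Igf1 was most like Lgr5 (r = 0.949), a receptor for R-spondins. Igf1r was most like Srgap1 (0.985) and Neo1 (0.981), which act in axon guidance. Igfbp3 was most like Anxa2 (0.991), a calcium-dependent membrane-binding protein, Lmna (0.990), the gene of lamin A and C, and Matn2 (0.990), a matrix protein. Igfbp7 was most like Tspan11 (0.992), Rerg (0.990) and Ldb2 (0.989). For Insr, Irs1, Igfbp2, Igfbp4 and Igfbp5 the nearest genes were Tbc1d9 (0.972), Ice1 (0.982), Mrps28 (0.984), Mdfi (0.986) and Lman1 (0.948).

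The rest of the pathway was followed in 71 further genes. Of these, 10 of 63 tested passed the test at E11.5 against E10.5 (4 higher, 6 lower), against 11.8% of all genes. At E12.5 against E11.5 it was 8 of 64 (4 higher, 4 lower), against 12.2%, and at E12.5 against E10.5 it was 17 of 63 (8 higher, 9 lower), against 24.6%. These shares were near those of all genes. Their median log2 fold changes were -0.04, -0.07 and -0.09. Among the other ligands and receptors, Igf2r, which takes up IGF2 for breakdown, had mean levels of 200, 190 and 161 CPM and passed no test with all libraries, but was lower at E11.5 than at E10.5 without E10.5 replicate 3 (-0.19, adjusted p = 0.0319) and lower at E12.5 than at E11.5 without E12.5 replicate 2 (-0.50, adjusted p = 0.0166). Igf2, the main fetal IGF, was listed at 36.5–111 CPM and passed no test with all libraries and the default settings. Without E12.5 replicate 2 it was lower at E12.5 than at E11.5 (-0.44, adjusted p = 0.025). However, 62.8% of its exon bases are shared with Gm49394, a readthrough gene on the same strand listed at 0 counts. The listed values therefore cannot be read as the level of Igf2. Ins1 had 0 counts in every library, which allows up to 3 counts in each, and Igfbp1, Igfbp6 and Igfals stayed under 0.6 CPM and were not tested.

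Genes that act on the binding proteins included the largest change of the pathway. Pappa2, a protease that cuts IGFBP3 and IGFBP5, had 0.475, 0.290 and 0.248 CPM at E10.5, 3.12, 1.64 and 2.16 CPM at E11.5, then 17.9, 24.3 and 9.84 CPM at E12.5. The E10.5 values rest on only 8, 5 and 4 counts, so fold changes from that stage have a low baseline. The stages did not overlap, and each was above the one before. Pappa2 rose by 2.74 on the log2 scale in the first interval (SE 0.420, adjusted p = 0.00655), by 2.91 in the second (SE 0.339, adjusted p = 0.000436) and by 5.66 over the whole span (SE 0.443, adjusted p = 1.04e-05), and all 3 calls held in every fit without 1 library. Htra1, another secreted protease of binding proteins, rose by 1.38 over the whole span (adjusted p = 0.00424). Stc2, an inhibitor of pappalysins, fell from 3.74–6.32 CPM at E10.5 to 1.32–2.55 CPM at E11.5, by 1.52 (SE 0.325, adjusted p = 0.0221). This call was lost without E10.5 replicate 2 (adjusted p = 0.0684), E11.5 replicate 1 (adjusted p = 0.117) or E11.5 replicate 3 (adjusted p = 0.107). At E12.5 Stc2 had 2.03–2.32 CPM, lower than at E10.5 (log2 fold change -1.27, adjusted p = 0.0111), and the second interval gave 0.25 (adjusted p = 0.625). Pappa, Stc1 and Adam12 passed no test, and Adam28 was too low to be tested. Igfbpl1, an IGFBP-like protein known from the nervous system, fell from 28.9, 19.7 and 22.9 CPM to 8.39, 9.47 and 11.4 CPM and then 6.54, 6.09 and 6.50 CPM, by 1.89 over the whole span (SE 0.220, adjusted p = 0.000143). Kazald1, a related matrix protein, rose by 1.88 over the same span (SE 0.466, adjusted p = 0.0138) from 0.497 to 1.85 CPM, and lost this call without E10.5 replicate 2 (1.67, adjusted p = 0.0554) or E12.5 replicate 3 (1.60, adjusted p = 0.0708).

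Below the receptors, Irs4, a substrate related to Irs1, had 34.4, 22.6 and 39.5 CPM at E10.5, 2.26, 3.32 and 1.84 CPM at E11.5, then 1.52, 1.67 and 0.775 CPM at E12.5. It fell by 3.69 in the first interval (SE 0.293, adjusted p = 0.00104), and the estimate for the second was -0.90 (SE 0.354, adjusted p = 0.119). Irs4 and Igfbpl1 thus fell in the interval in which the forebrain neural progenitor markers fell, and the part of those cells was not tested. Irs2, another substrate of both receptors, rose and fell again (0.47, adjusted p = 0.0459, then -0.56, adjusted p = 0.0409), and both calls were lost in 5 of the 6 fits without 1 library. Grb14 and Socs1, which restrain signalling from these receptors, rose by 1.18 and 1.17 in the second interval (adjusted p = 0.00391 for each) and by 1.97 and 1.85 over the whole span (adjusted p = 0.000752 and 0.00196). In the PI3K-Akt-mTOR arm, 3 of 26 genes passed the test in the first interval, 0 in the second and 3 over the whole span, against 11.8%, 12.2% and 24.6% of all genes. Those higher were Pik3r1 and Pik3r3, regulatory subunits of PI3K, and Foxo3, a transcription factor held out of the nucleus by Akt. Pik3r1 rose by 0.76 in the first interval (adjusted p = 0.00808). Those lower were Eif4ebp1, a repressor of translation that mTOR inactivates, in the first interval (-0.78, adjusted p = 0.0454) and Pik3cb, a catalytic subunit of PI3K, over the whole span (-0.83, adjusted p = 0.0302). In the ERK arm it was 0, 0 and 1 of 10, the last being Braf, lower by -0.70 (adjusted p = 0.0303).

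The IGF2 mRNA-binding proteins moved in 1 direction. Igf2bp1 had 542, 608 and 545 CPM at E10.5, 371, 419 and 383 CPM at E11.5, then 197, 230 and 172 CPM at E12.5, and Igf2bp3 had 200, 197 and 208, then 144, 158 and 141, then 63.1, 94.6 and 49.1 CPM. No stages overlapped for either gene. Over the whole span Igf2bp1 fell by 1.49 (SE 0.182, adjusted p = 0.000200), Igf2bp3 by 1.54 (SE 0.233, adjusted p = 0.000842) and Igf2bp2 by 0.59 (adjusted p = 0.0374), so that all 3 members passed the test, against 10.5% of all genes lower over that span. These proteins are named for the Igf2 message but bind many RNAs, and 18.7% of the exon bases of Igf2bp3 are shared with the antisense gene Malsu1.

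**Figure D4:**
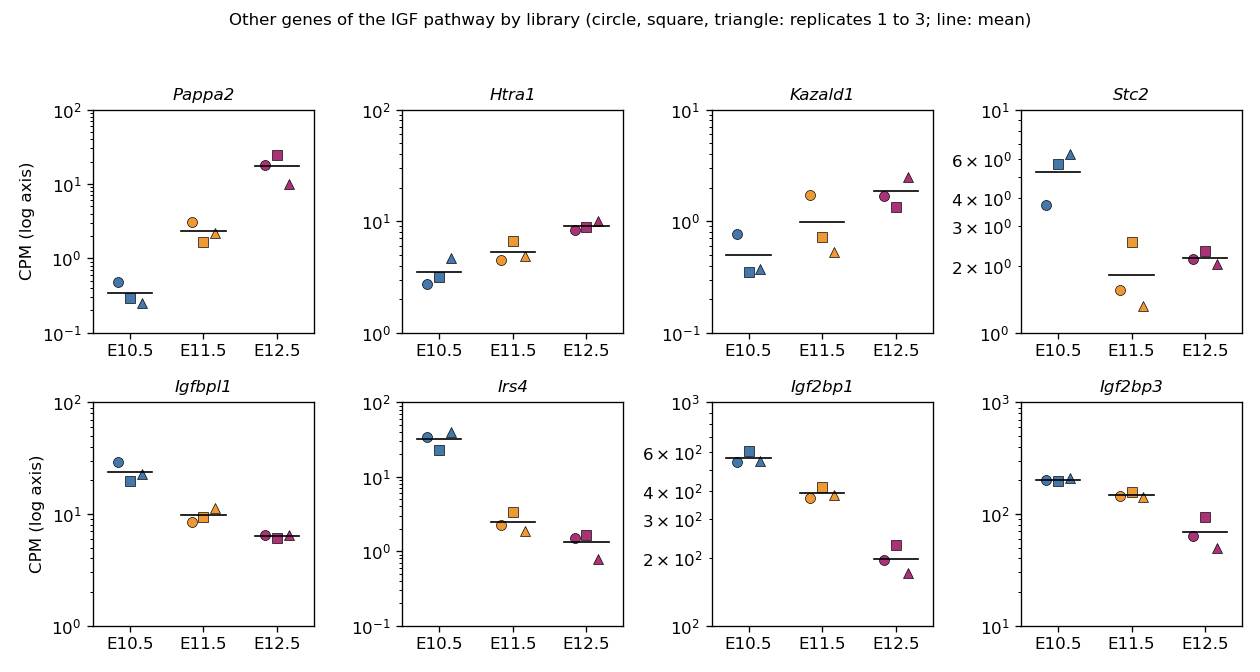
CPM (vertical axis, logarithmic) of 8 other genes of the pathway that were DEGs in at least 1 comparison, in each of the 9 libraries by stage. Symbols mark replicates 1 to 3 and lines the mean; Pappa2 goes from under 0.5 CPM in every E10.5 library to 9.84–24.3 CPM at E12.5, and Irs4 from 22.6–39.5 to 0.775–1.67 CPM.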

How the data were processed

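Reads were aligned by the authors to mm10 (GRCm38) with HISAT2 2.0.5, per the submitters' processing notes, and counted per gene with featureCounts. The deposited table holds, for every gene, the authors' unnormalized whole-number counts of each library, together with FPKM values and gene lengths. Its fold changes and p-values of the authors' own comparisons were not used, and FPKM entered only an alternative computation of the binding protein shares. Strand and overlap settings of the counting are not given in the sources used here.

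Depth was 16581009–20836804 counts per library. Stages were compared in pairs, with only the 6 libraries of the pair in the fit, in edgeR 4.0.16 (R 4.3.3) with filterByExpr, TMM and the quasi-likelihood test, and p-values were Benjamini-Hochberg adjusted over all genes tested. Genes with an adjusted p of at most 0.05 were called, and DEGs also differed by 1 or more on the log2 scale, in either direction. The standard error of a fold change was obtained from its F statistic, as the size of the log2 fold change over the square root of F. All 9 libraries were fitted together for the 3 stages and for the second interval minus the first. DESeq2 1.42.0, other filters and scalings, GC correction, a replicate block and leaving out each library were the alternatives. The scripts were tested on simulated data.

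CPM uses TMM-scaled library sizes of all 9 libraries. GC content is from GENCODE vM21 transcripts, with 99.77% of genes matched. Named were the 9 genes, DEGs among 71 other pathway genes (at most 6 a list), Igf2, Igf2r, Igfbp6 and Irs2, and the 3 genes nearest to each of the 9 by r. Other called genes of the lists were named after their values were seen. The members and lists were chosen with earlier results of these data known. Labels do not say that libraries of a stage came from separate litters, so p-values measure the spread between these libraries. Deviations of same-numbered libraries had correlations of -0.151 to 0.220, with 2 of 9 pairs above 0.1. Between E10.5 and E12.5 they were 0.178, 0.0701 and 0.220 for replicates 1, 2 and 3, so some shared deviation is present there. Replicates differed by more than sampling noise (chi-square of 4.19–61.6 per degree of freedom). Counts carry no molecular identifiers, so limits on counts of 0 cover counting error only. Figures were drawn in Python 3.11.15 with matplotlib 3.10.9.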

Additional observations from a re-analysis of the deposited data

Results flagged for a closer look

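The fall of Irs4, an insulin receptor substrate, differed between the intervals. The log2 fold change was -3.69 (SE 0.293) at E11.5 against E10.5 and -0.90 (SE 0.354) at E12.5 against E11.5, and the second minus the first was 2.79 (SE 0.566, adjusted p = 0.0346, edgeR's quasi-likelihood test on all 9 libraries), against 1.18% of all genes called for this difference. The call was lost in 5 of the 9 fits without 1 library, namely without E11.5 replicate 1 (2.68, adjusted p = 0.225), E11.5 replicate 2 (3.35, adjusted p = 0.0575), E11.5 replicate 3 (2.46, adjusted p = 0.218), E12.5 replicate 1 (2.70, adjusted p = 0.120) or E12.5 replicate 2 (2.60, adjusted p = 0.0614).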

How the results depend on the processing

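Of 779 values of the 9 genes under the alternatives, 714 kept their direction and their side of the threshold, 22 lost the call, 36 gained one and 7 changed direction, and for the other named genes these were 1005, 83, 12 and 23 of 1123. The cause was not tested for any of them. At a depth of 16581009–20836804 counts, Igfbp7 with 9 to 35 counts at E10.5 was the least precisely measured of the 9 genes.

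At E11.5 against E10.5, 1849 genes passed the test. The number was 576 at an adjusted p of at most 0.01, 3514 with the GC trend removed, 3054 with the GC trend removed and a replicate block, and 954 with a log2 fold change of at least 1 required. With a minimum of 10 counts in every library it was 1525 of 14065 tested. Of the 9 IGF genes, 4 passed, 2 at an adjusted p of at most 0.01, 2 with a minimum of 10 counts per library, where Igfbp7 is not tested, and 1 with the fold required. Of the other pathway genes, 10 passed, 4 at an adjusted p of at most 0.01 and 4 with the fold required.

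At E12.5 against E11.5, 1926 of 15808 genes passed, 700 at an adjusted p of at most 0.01, 3242 of 28297 among all genes with at least 1 count, 1179 of 16375 in a fit on all 9 libraries and 806 with the fold required. DESeq2 called 2439 of 17325 genes. The number was 2191 of 15808 with a replicate block, 2235 of 15796 with the GC trend removed and 2239 of 15796 with GC and block. The IGF genes numbered 1, 2 in DESeq2 (Igf1 added), 3 among all genes with at least 1 count (Igf1 and Irs1 added), 2 with a replicate block (Irs1 added, adjusted p = 0.0479, edgeR) and 0 with the fold required in edgeR. The other pathway genes numbered 8, 5 at an adjusted p of at most 0.01, 16 in DESeq2, 21 among all genes with at least 1 count, 5 in the fit on all 9 libraries, 15 with the GC trend removed, 14 with GC and block, and 4 with the fold required. At E12.5 against E10.5, 3906 of 15899 genes passed, 1932 at an adjusted p of at most 0.01, 6168 of 15888 with GC and block, and 2392 with the fold required. The number was 5429 of 16375 on all 9 libraries, 5362 of 15888 with the GC trend removed and 3062 of 13912 with the minimum of 10 counts. The IGF genes numbered 2, 1 with that minimum of 10 counts and 4 with GC and block, and the other pathway genes 17, 10 at an adjusted p of at most 0.01, 26 on all 9 libraries, 28 with the GC trend removed, 31 with GC and block, and 10 with the fold required.

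Over the 3 stages together, 4630 genes and 23 other pathway genes passed, and 2475 and 11 at an adjusted p of at most 0.01. For the second minus the first interval, 194 genes passed, 37 at an adjusted p of at most 0.01, 467 in DESeq2, 700 among all genes with at least 1 count, 111 with the minimum of 10 counts, 300 with the GC trend removed and 399 with GC and block. With a replicate block it was 205 of 16375. The IGF genes numbered 0 in edgeR (3 at an unadjusted p under 0.05), 2 in DESeq2, 2 among all genes with at least 1 count and 2 with GC and block (Igf1 and Igfbp7 in each), and 1 with a replicate block and 1 with the GC trend removed (Igfbp7 in both). The other pathway genes numbered 1, 0 at an adjusted p of at most 0.01, 2 in DESeq2, 3 among all genes with at least 1 count, 2 with the GC trend removed and 2 with GC and block.

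The replicate block treats same-numbered libraries as pairs, which the sample labels do not state. It gave 4468 called genes at E12.5 against E10.5, beside 3906 without it. With the replicate block, 3 IGF genes passed at E11.5 against E10.5, the call of Igfbp2 being lost (adjusted p = 0.104, edgeR). Counts without division by gene length gave, in the order of the stages, shares of 20.9%, 14.8% and 14.6% for Igfbp2, 1.86%, 2.97% and 4.67% for Igfbp3, 34.8%, 37.4% and 36.8% for Igfbp5 and 0.0613%, 0.405% and 0.420% for Igfbp7, and 44.4% and 43.5% for Igfbp4 at the last 2 stages.

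Some uncalled estimates changed direction. With GC and block these were Igf2 at E12.5 against E11.5 (-0.084) and E12.5 against E10.5 (-0.092), Igf1r at E12.5 against E10.5 (-0.073, and -0.042 with the GC trend removed alone), and, as second minus first interval, Igf2 (-0.044) and Htra1 (-0.012). Kazald1 turned to 0.045 there with a replicate block.

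Leaving out 1 library at a time gave 477–6447 genes at E11.5 against E10.5 (6447 without E10.5 replicate 3 and 477 without E11.5 replicate 1), 716–4976 at E12.5 against E11.5 (4976 without E12.5 replicate 2 and 716 without E11.5 replicate 2), 2202–4962 at E12.5 against E10.5, 3257–6275 over the 3 stages and 27–437 for the second minus the first interval. The IGF genes numbered 1–7 (1 when E11.5 replicate 1 was left out and 7 without E10.5 replicate 3), 1–8 (8 without E12.5 replicate 2), 2–3, 3–7 over the 3 stages (7 without E12.5 replicate 2) and 0–2 for the difference of the intervals. The other pathway genes numbered 3–33, 4–30, 12–22, 13–29 and 0–2. An arm with 2 libraries is assumed to vary like the other. At E11.5 against E10.5 the estimates that turned ranged over -0.21 to 0.20 for Igfbp4, -0.10 to 0.061 for Igf2 and -0.19 to 0.017 for Igf2r. At E12.5 against E11.5, Igf2 ranged over -0.44 to 0.51. At E12.5 against E10.5 the ranges were -0.19 to 0.24 for Igf1r, -0.44 to 0.51 for Igf2 and -0.25 to 0.063 for Irs2. For the second minus the first interval they were -0.032 to 0.43 for Igfbp5, -0.13 to 0.56 for Htra1, -0.67 to 1.23 for Kazald1, -0.22 to 0.74 for Pappa2, -0.40 to 0.54 for Igf2 and -0.41 to 0.020 for Igf2r.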
